A study of Mus musculus with 23 samples.

Results

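The 9 genes Muc2, Fcgbp, Zg16, Clca1, Agr2, Tff3, Spink4, Klk1 and Spdef mark goblet cells, the mucus-secreting cells of the intestinal epithelium, and were taken by name from the 22350 protein-coding genes of the RNA-seq quantification. Their mRNA was measured in mouse small intestinal organoids that were wild type (WT), Rptor fl/fl or grown under stem cell enrichment (SCe), and their ribosome footprints in organoids of the last 2 kinds and in the small intestine of mice. RNA-seq measures the abundance of mRNA, and Ribo-seq counts the footprints that ribosomes protect on coding sequences. Rptor encodes Raptor, an essential subunit of the growth-controlling kinase complex mTORC1.

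All material was of C57BL/6 strain. WT and SCe organoids carried VillinCre.ERT2.RPL22.HA, in which the Villin promoter drives a tamoxifen-inducible Cre in the intestinal epithelium and the ribosomal protein RPL22 bears an HA tag for pulldown. The Rptor fl/fl organoids were VillinCre.ERT2.Rptor.fl/fl for RNA-seq, without the tag. For Ribo-seq they were VillinCre.ERT2.Rptor.fl/fl.RPL22.HA. SCe cultures received 10 µM CHIR 99021 and 1.5 mM valproic acid. The WT mice were Lgr5Cre.ERT2.RPL22.HA. Their Rptor fl/fl counterparts were Lgr5Cre.ERT2.Rptor.fl/fl.RPL22.HA, where the Lgr5 promoter restricts Cre to crypt base stem cells and whatever descends from them. The labels call WT and Rptor fl/fl material untreated, although the study's methods describe tamoxifen induction. RNA-seq covered 2 WT and 2 Rptor fl/fl organoid lines, each sequenced in 2 technical libraries that were summed, and 3 SCe cultures. Each Ribo-seq group had 3 libraries.

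Depth ranged from 23802944 to 67598878 assigned reads per RNA-seq library, from 1106178 to 8257457 footprints in organoids and from 772077 to 8238388 in mice. Rptor mRNA was 51.5 and 47.9 CPM (counts scaled to library size) in the WT lines, 14.8 and 15.5 in Rptor fl/fl lines and 53.7 to 60.8 in SCe cultures (log2 difference Rptor fl/fl minus WT -1.71 ± 0.08 SE, edgeR quasi-likelihood adjusted p = 0.00516). In organoid Ribo-seq, Rptor footprints were 15.9 to 18.7 CPM where the label read Rptor fl/fl. They were 15.2, 41.8 and 21.0 CPM in SCe, and the groups overlapped (-0.53 ± 0.34, adjusted p = 0.318 by edgeR), so directions in that assay refer to the libraries as labelled. In mice they were 39.5 to 44.5 CPM in WT and 32.5 to 36.7 in Rptor fl/fl (-0.28 ± 0.12, adjusted p = 0.150 by edgeR). The stem cell marker Lgr5 was counted at 9, 17 and 48 in WT against 139, 28 and 50 footprints in Rptor fl/fl mice, or 6.29 to 45.6 CPM, so few footprints came from the defining marker of the targeted cells.

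Goblet cells arise from secretory progenitors under the transcription factor Atoh1, and the ETS factor Spdef promotes their maturation. They pack the gel-forming mucin Muc2 into granules and release it to form the mucus layer, together with proteins that crosslink, trim or decorate the gel. Because mucins are large and rich in cysteine and O-linked sugars, their production leans on dedicated folding and glycosylation enzymes in the endoplasmic reticulum and Golgi.

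On the mm10 build with GENCODE vM21 annotation, Muc2 lies at chr7:141690340-141754693 and Fcgbp at chr7:28071236-28120862, both on the plus strand. Zg16 (chr7:127050156-127087328), Clca1 (chr3:145003817-145032776), Tff3 (chr17:31125306-31129646) and Spdef (chr17:27714352-27728955) are on the minus strand. Agr2 (chr12:35992907-36004087), Spink4 (chr4:40920052-40931395) and Klk1 (chr7:44225360-44229618) are on the plus strand. RNA-seq entries were whole transcripts, so exons and untranslated regions count, whereas the study describes Ribo-seq entries with untranslated regions trimmed off. The longest Zg16 entry was 550 bases in organoid and 754 in mouse Ribo-seq, beside 773 in RNA-seq. For Spdef the lengths were 1024, 1436 and 1921. Trimming therefore differed between the Ribo-seq sets, and untranslated bases may remain. Of the 29-base words in Klk1 transcripts, 48.7% occur in another gene's transcripts, most often Klk1b5, and 16.8% of those in Fcgbp are shared, nearly all with 9530053A07Rik. Assigned reads on these copies were few, at most 2.32 CPM for 9530053A07Rik and at most 1.21 CPM for Klk1b5 in any library, but the values of Klk1 and, to a lesser degree, Fcgbp rest on how the reads were divided. No other gene shared such a word with the remaining 7 members.

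Promoter sequence from RefSeq (GRCm38.p6) was given for 5 members, Muc2, Fcgbp, Agr2, Klk1 and Spdef. The 250 bases before the start are printed for Muc2 and Fcgbp, since their values were higher in Rptor fl/fl than in WT in both organoids and mice (below 5′ to 3′, plus strand, chr7:141690090-141690339 and chr7:28070986-28071235). Capitals mark matches on either strand to the E-box CAGCTG, a core read by basic helix-loop-helix factors such as Atoh1, and to TATAAA.
Muc2: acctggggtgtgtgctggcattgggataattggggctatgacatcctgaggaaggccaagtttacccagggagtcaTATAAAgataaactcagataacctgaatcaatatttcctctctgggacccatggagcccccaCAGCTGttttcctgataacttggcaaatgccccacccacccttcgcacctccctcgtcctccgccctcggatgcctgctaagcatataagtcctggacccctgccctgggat
Fcgbp: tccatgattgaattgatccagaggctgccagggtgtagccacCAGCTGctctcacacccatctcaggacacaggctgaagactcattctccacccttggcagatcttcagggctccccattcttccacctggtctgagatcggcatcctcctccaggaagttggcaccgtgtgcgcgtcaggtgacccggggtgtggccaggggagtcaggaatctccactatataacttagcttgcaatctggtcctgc
Muc2 held CAGCTG starting 112 bases and TATAAA starting 174 bases before its start, and Fcgbp held CAGCTG starting 208 bases before it. Agr2, Klk1 and Spdef held neither. Among 32851 mouse promoters of the same window, 13.0% held CAGCTG and 12.4% held TATAAA. The forkhead core TGTTTAC, present in 3.17% of promoters, and the ETS core CCGGAAG, in 6.91%, matched none of the 5.

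By summed CPM, the 9 genes made up 0.180% and 0.195% of the scaled mRNA library size in the WT lines. The share was 0.314% and 0.437% in Rptor fl/fl lines and 0.0250% to 0.0489% in SCe cultures. In organoid Ribo-seq the share was 0.331% to 0.538% where the label read Rptor fl/fl and 0.119% to 0.158% in SCe. In mice they reached 2.55% to 2.58% in WT and 3.02% to 3.38% in Rptor fl/fl. The order of groups was therefore the same within each assay, with the Rptor fl/fl libraries highest. In these bulk samples fewer goblet cells and less goblet RNA per cell cannot be told apart.

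**Figure D1:**
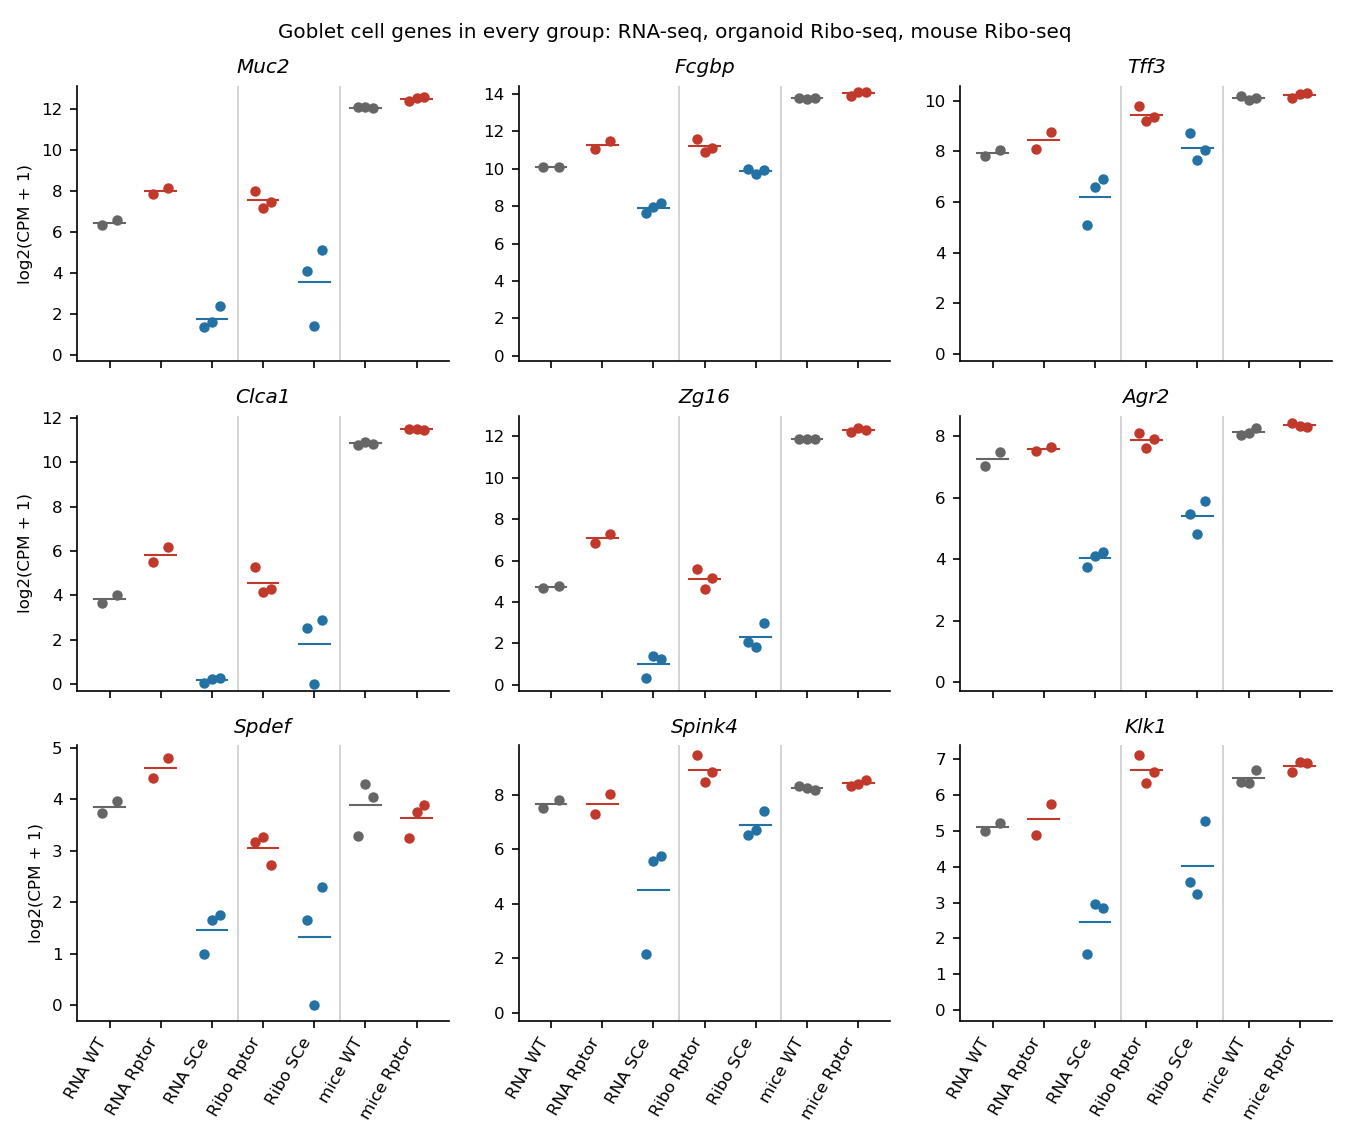
Level of each gene as log2(CPM + 1) in every group of RNA-seq (left of the first grey line), organoid Ribo-seq (middle) and mouse Ribo-seq (right). Each point is a line, culture or mouse and each bar the mean of the points, with WT in grey, Rptor fl/fl in red and SCe in blue. In RNA-seq and organoid Ribo-seq the SCe points are the lowest for every gene.

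Per length, in CPM divided by length in kilobases (RPKM, using the longest entry of a gene and, for Muc2, 5 entries that do not overlap), the secreted peptides led the organoid mRNA. In WT lines Tff3 had a mean of 501 ± 57.5 (SD, n = 2) and Spink4 498 ± 70.2, and their ranges overlapped. Agr2 at 199 ± 43.4, Fcgbp at 138 ± 0.545, Klk1 at 35.4 ± 3.91 and Zg16 at 33.3 ± 1.69 came next, the last pair with overlapping ranges. Muc2 at 11.6 ± 1.33, Spdef at 6.99 ± 0.870 and Clca1 at 3.68 ± 0.640 were lowest. Muc2 is annotated as 8 separate pieces with a gap in the middle of the gene, so its place in the order is uncertain.

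The order differed in the footprints of the mice. In WT mice Zg16 led with 4972 ± 61.6 RPKM (SD, n = 3), followed by Tff3 at 3172 ± 144, Fcgbp at 1793 ± 36.4, Spink4 at 893 ± 45.8, Clca1 at 651 ± 27.7, Muc2 at 584 ± 12.3, Agr2 at 449 ± 32.7, Klk1 at 94.4 ± 13.5 and Spdef at 9.95 ± 3.49. No neighbours in that order overlapped, while in Rptor fl/fl mice Spink4 and Clca1 did. In the organoid libraries labelled Rptor fl/fl the footprints of Tff3 (2417 ± 532), Spink4 (1642 ± 581) and Agr2 (414 ± 69.8) ranked above those of Fcgbp (306 ± 75.4), Klk1 (126 ± 35.0), Zg16 (64.0 ± 21.1), Muc2 (26.7 ± 7.85), Clca1 (8.70 ± 4.07) and Spdef (7.20 ± 1.53). The ranges of Tff3 and Spink4, of Agr2 and Fcgbp, and of Clca1 and Spdef overlapped. Zg16 therefore ranked 6 in the mRNA of WT organoids and 1 in the WT mice, and Clca1 ranked 9 and 5, while Muc2 ranked 7 and 6. Organoid and mouse footprints were quantified against separately trimmed sequences and scaled apart, so no test joins them.

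Goblet transcripts were first compared in the RNA-seq of Rptor fl/fl against WT organoids. The WT lines carried the RPL22.HA tag and the Rptor fl/fl lines did not, so Rptor genotype and tag cannot be told apart. Muc2, Fcgbp, Zg16, Clca1 and Spdef were higher in Rptor fl/fl, 5 of 9 members, and Agr2, Tff3, Spink4 and Klk1 did not pass the test. Over all 14131 genes tested, 11.6% were called higher. The median log2 difference of the members was 0.82 against -0.005 over all genes.

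Muc2, the mucin that forms the gel, was 80.5 and 94.7 CPM in WT lines against 232 and 282 CPM in Rptor fl/fl. Rptor fl/fl lines both lay above the WT lines, with a 2.94-fold difference (log2 1.55 ± 0.13 SE, edgeR adjusted p = 0.0101). Fcgbp, an abundant protein of the mucus gel, was 1103 and 1097 CPM in WT and 2084 and 2882 in Rptor fl/fl (2.26-fold, log2 1.17 ± 0.18, edgeR adjusted p = 0.0189). The WT lines were nearly equal and the Rptor fl/fl lines stood apart from each other as well as from WT.

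Zg16, a lectin-like protein that aggregates Gram-positive bacteria in the mucus, was 24.9 and 26.7 CPM in WT and 116 and 157 in Rptor fl/fl. Of the 9 genes it differed most, 5.29-fold (log2 2.40 ± 0.16, edgeR adjusted p = 0.00855). Clca1, a secreted protease that processes Muc2, was 11.9 and 15.2 CPM in WT and 44.2 and 71.0 in Rptor fl/fl (4.26-fold, log2 2.09 ± 0.27, edgeR adjusted p = 0.0160). Spdef was 12.2 and 14.6 CPM in WT and 20.4 and 26.9 in Rptor fl/fl (1.76-fold, log2 0.82 ± 0.17, edgeR adjusted p = 0.0350). Groups did not overlap for any of these genes, which is weak evidence with 2 lines each, and the share over all genes was not counted.

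The other members gave smaller values. Agr2, the disulfide isomerase needed to fold Muc2, was 132 and 180 CPM in WT and 182 and 202 in Rptor fl/fl (log2 0.30, 95% interval -0.12 to 0.73, edgeR adjusted p = 0.236). The trefoil peptide Tff3 was 227 and 267 CPM in WT and 273 and 436 in Rptor fl/fl (log2 0.52, -0.10 to 1.15, edgeR adjusted p = 0.178). Neither pair of groups overlapped, again without a share over all genes. With the line number as a block, both passed (adjusted p = 0.0441 for Agr2 and 0.0268 for Tff3 by edgeR), but whether the numbers pair the lines is not settled. Spink4, of the Kazal-type protease inhibitor family, was 181 and 221 CPM in WT against 156 and 261 in Rptor fl/fl (log2 0.05, -0.63 to 0.74, edgeR adjusted p = 0.898). Klk1, tissue kallikrein, was 31.2 and 36.5 against 28.5 and 53.2 (log2 0.27, -0.53 to 1.07, edgeR adjusted p = 0.553). For both, line 1 of Rptor fl/fl lay below the WT lines and line 2 above. Technical libraries of a line differed by at most 0.32 on the log2 CPM scale over the 9 genes, with a median of 0.06.

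Without WT line 1 or without WT line 2, the members called fell to 3, since Fcgbp (adjusted p = 0.0563 and 0.0529 by edgeR) and Spdef (0.101 and 0.0665) no longer passed, while Muc2, Zg16 and Clca1 did in each case. Spdef also lost its call without Rptor fl/fl line 2 (0.0763 by edgeR). Paneth cell markers moved the other way in the same libraries, with 8 of 12 called lower and none higher, and their summed level was 5227 and 6414 CPM in WT against 949 and 1940 in Rptor fl/fl. Of 10 stem cell markers 6 were called lower and 1 higher, and of 12 enteroendocrine markers 3 lower. Over all genes in this comparison 11.0% were called lower and 11.6% higher. Tuft cell markers moved with the goblet genes, with 9 of 9 above 0, 1 called higher, a median of 0.80, and sums of 25.5 and 36.6 CPM in WT against 54.3 and 73.9 in Rptor fl/fl. The part of these cells in the result was not tested.

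SCe cultures held far less mRNA of the goblet genes. In SCe against WT organoids 7 of 9 members were called lower, among 19.9% of 14925 genes tested, and all 9 had both WT lines above the 3 SCe cultures, as did 35.1% of all genes tested. The median log2 difference of the members was -2.83 against 0.02 over all genes. Markers of other secretory lineages lay mostly below 0 as well. All 12 Paneth cell markers did, with a median of -1.20. Of these only 2 were called lower and 0 higher, beside 19.9% and 22.4% of all genes. Of 12 enteroendocrine markers 10 were called lower, with a median of -3.80 and sums of 235 and 350 CPM in WT against 4.41 to 35.4 in SCe. Of 8 tuft cell markers 3 were called lower and 1 higher, beside 19.9% and 22.4% of all genes, with a median of -2.13. Their part was not tested.

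Clca1 mRNA was nearly absent, with 1, 11 and 13 reads in the SCe cultures (0.0334, 0.173 and 0.224 CPM; log2 SCe minus WT -6.39 ± 0.52, edgeR adjusted p = 0.00184). Muc2 fell to 1.60, 2.04 and 4.21 CPM (-5.01 ± 0.43, edgeR adjusted p = 0.00202) and Zg16 to 0.267, 1.66 and 1.39 (-4.45 ± 0.64, edgeR adjusted p = 0.00631). Fcgbp kept 197, 247 and 285 CPM (-2.16 ± 0.17, edgeR adjusted p = 0.00171). Agr2 was 12.3, 16.0 and 18.0 CPM (-3.31 ± 0.22, edgeR adjusted p = 0.00129), Spdef 1.00, 2.15 and 2.36 (-2.83 ± 0.38, edgeR adjusted p = 0.00545) and Klk1 1.97, 6.74 and 6.24 (-2.72 ± 0.51, edgeR adjusted p = 0.0128). Klk1 and Zg16 were lowest in culture 1, well under the other SCe cultures. This comparison shares its WT lines with the preceding one.

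Tff3 and Spink4 did not pass. Tff3 was 32.7, 95.1 and 118 CPM in SCe (-1.57 ± 0.53, edgeR adjusted p = 0.0663) and Spink4 3.51, 46.3 and 53.5 (-2.52 ± 1.00, edgeR adjusted p = 0.1001). SCe culture 1 was the lowest of the 3 for every member, and without it all 9 were called in this comparison and in Rptor fl/fl against SCe. Paneth and enterocyte markers were also lowest in that culture, at 981 and 635 CPM in sum against up to 4191 and 8866 CPM in the other SCe cultures, and their part was not tested. Without WT line 2, Zg16 (adjusted p = 0.0507 by edgeR) and Klk1 (0.0786) lost their calls, and Klk1 also did without WT line 1 (0.0665).

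Rptor fl/fl and SCe organoids were also compared directly, with the same lines and cultures. Rptor genotype and the compounds given to SCe cultures cannot be told apart here or in the organoid footprints below. Here 8 of 9 members were called higher in Rptor fl/fl, against 21.0% of 15103 genes, with a median log2 difference of 3.64 against -0.01 over all genes. Tuft cell markers were also higher, 6 of 9 called with a median of 3.30, as were 5 of 12 enteroendocrine markers with a median of 2.15, and their part was not tested. The members' difference ranged from 2.11 for Tff3 (edgeR adjusted p = 0.0314) to 8.47 for Clca1 (0.00105), with Zg16 at 6.84 (0.00182), Muc2 at 6.59 (0.00118), Spdef at 3.66 (0.00258), Agr2 at 3.64 (0.000978), Fcgbp at 3.36 (0.00109) and Klk1 at 3.02 (0.0119). Spink4 did not pass (2.60, 95% interval 0.04 to 5.15, edgeR adjusted p = 0.0914). Tff3 lost its call when any of 4 libraries was left out, both Rptor fl/fl lines (adjusted p = 0.0893 and 0.164) and SCe cultures 2 and 3 (0.0765 and 0.0502), and Klk1 without Rptor fl/fl line 2 (0.0822, all by edgeR).

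**Figure D2:**
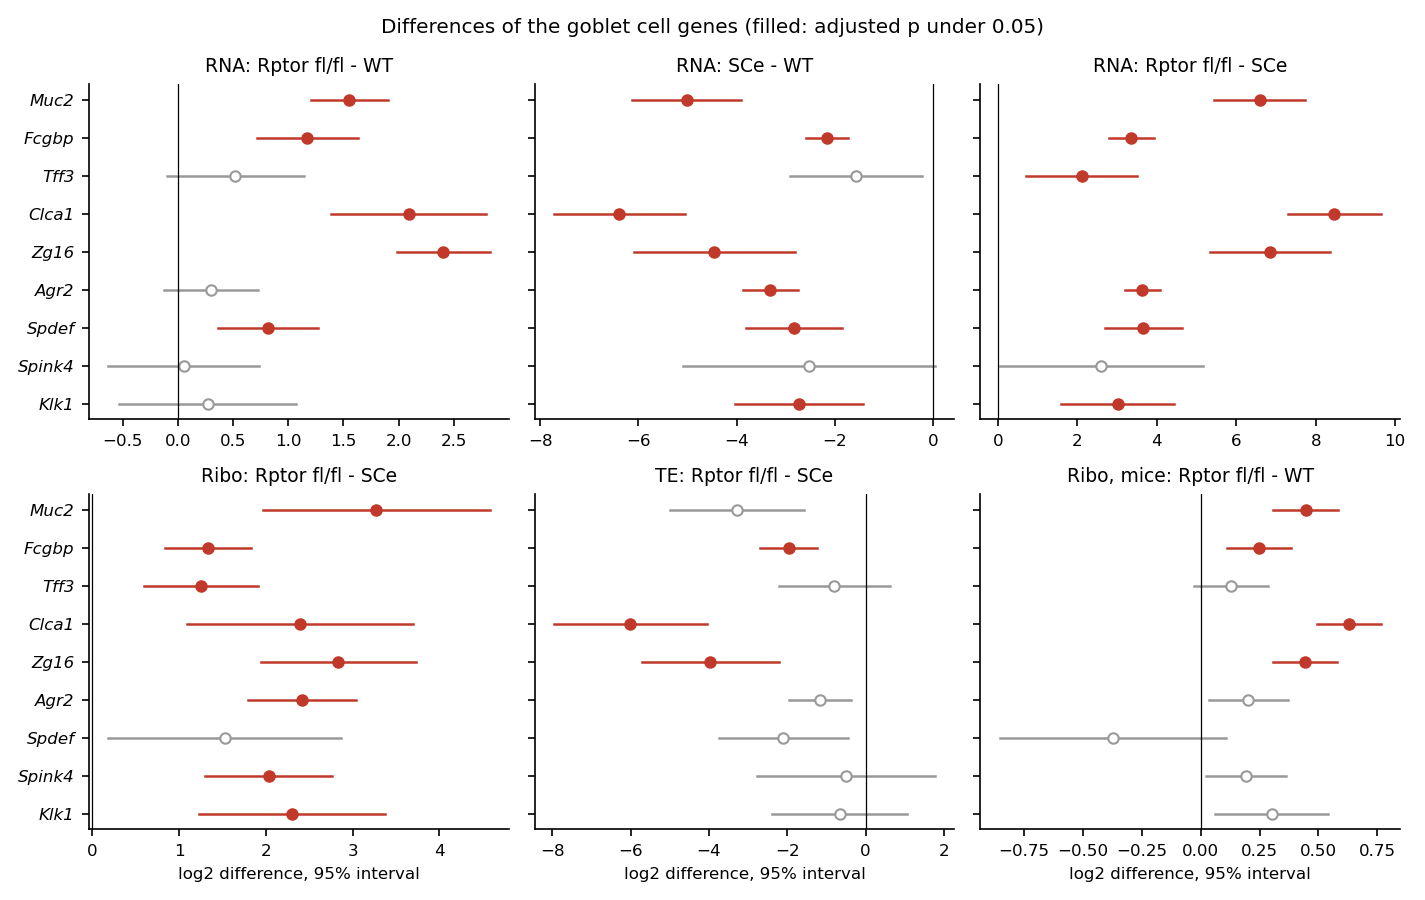
log2 difference of each gene (x axis) with its 95% interval in the 6 comparisons, each titled with the groups subtracted, where TE is the difference in footprints minus the difference in mRNA. Filled red points passed an adjusted p of 0.05 and open grey points did not. The x axes differ in range between panels, and the mouse differences span the narrowest range (-0.37 to 0.63).

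Ribosome footprints were then set against each other in organoids, between those labelled Rptor fl/fl and SCe. Here 8 of 9 members were higher in the former, against 6.63% of 10817 genes, and the 3 libraries of each group did not overlap for any of the 9. The same non-overlap in that direction held for 20.1% of all genes tested. The median log2 difference of the members was 2.30 against -0.02 over all genes.

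Muc2 footprints were 255, 145 and 176 CPM in libraries labelled Rptor fl/fl against 16.2, 1.71 and 34.1 in SCe (log2 3.27 ± 0.57, edgeR adjusted p = 0.00666). Those of Zg16 were 47.3, 24.1 and 34.2 CPM against 3.25, 2.56 and 6.92 (2.84 ± 0.39, edgeR adjusted p = 0.00289). For Clca1 they were 37.3, 17.0 and 18.5 CPM against 4.87, 0 and 6.46 (2.39 ± 0.57, edgeR adjusted p = 0.0235). SCe culture 2, the shallowest library, gave 0 Clca1 footprints, which allows up to 2.56 CPM at 3 counts, as counting error alone.

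Fcgbp had a narrower gap than Muc2, Zg16 and Clca1, 3040, 1894 and 2233 CPM against 994, 849 and 991 (1.34 ± 0.22, edgeR adjusted p = 0.00494). Agr2 was 277, 197 and 239 CPM against 43.3, 27.3 and 58.8 (2.42 ± 0.28, edgeR adjusted p = 0.00147). Spink4, which had missed the call in mRNA, was 701, 354 and 457 CPM against 90.9, 105 and 170 (2.03 ± 0.32, edgeR adjusted p = 0.00472). SCe libraries held 32 to 255 footprints of Agr2 and 123 to 738 of Spink4, against 3 to 30 of Zg16 and 0 to 28 of Clca1.

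Klk1 was 137, 79.8 and 98.9 CPM against 10.8, 8.53 and 37.8 (2.30 ± 0.47, edgeR adjusted p = 0.0128) and Tff3 881, 586 and 650 against 419, 199 and 267 (1.26 ± 0.29, edgeR adjusted p = 0.0208). Spdef was sparse, with 48, 54 and 46 footprints against 4, 0 and 17, and its difference did not pass (1.53 ± 0.59, edgeR adjusted p = 0.114). Without library 1 of those labelled Rptor fl/fl, 5 members were called, with Tff3 (adjusted p = 0.0859), Clca1 (0.101) and Klk1 (0.0535, all by edgeR) lost. With the entry lengths that the quantifier modelled used as an offset, 4 were called. Enteroendocrine markers moved with the goblet genes, with 6 of 11 tested called higher, as did enterocyte markers with 5 of 12, beside 6.63% of all genes. Of 10 stem cell markers 7 were called lower and 1 higher, beside 9.84% and 6.63% of all genes. The higher one was Olfm4 (2.47 ± 0.34, edgeR adjusted p = 0.00288). With it, the stem cell markers summed to 5089 to 5410 CPM under the label Rptor fl/fl and 1768 to 3371 CPM in SCe. The part of these cells was not tested.

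The footprint differences were smaller than the mRNA differences. Translation efficiency, the difference in footprints minus the difference in mRNA between organoids labelled Rptor fl/fl and SCe, was below 0 for all 9 members, with a median of -1.96 against -0.03 over all genes. It was called lower for Clca1 (-6.01 ± 0.88, edgeR adjusted p = 0.00864), Zg16 (-3.97 ± 0.79, 0.0305) and Fcgbp (-1.96 ± 0.33, 0.0158), 3 of 9 members against 1.81% of 10747 genes. Muc2 lay just past the threshold (-3.28 ± 0.78, edgeR adjusted p = 0.0504). Spdef (-2.10), Agr2 (-1.17), Tff3 (-0.80), Klk1 (-0.66) and Spink4 (-0.50) did not pass.

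In SCe cultures the footprints of most members were high for their mRNA. The mean footprint level of Fcgbp was 944 CPM and its mRNA 243, a log2 ratio of 1.96 that exceeded 98.0% of the genes tested for translation efficiency. The log2 ratio was 1.85 for Tff3, 1.83 for Spink4, 1.48 for Agr2, 1.93 for Klk1, 1.94 for Zg16, 2.73 for Muc2 and 4.72 for Clca1, the lowest of them at percentile 95.7 among genes, whereas Spdef at 0.14 was at percentile 62.5. The median over genes was -0.17. Where the label read Rptor fl/fl the ratios spread from -1.95 for Zg16 and -1.68 for Spdef to 1.37 for Klk1, around a median of -0.30, with Fcgbp at -0.06 and Muc2 at -0.42. The SCe ratios of Clca1, Zg16 and Muc2 rest on little mRNA, with means of 0.143, 1.11 and 2.62 CPM.

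**Figure D3:**
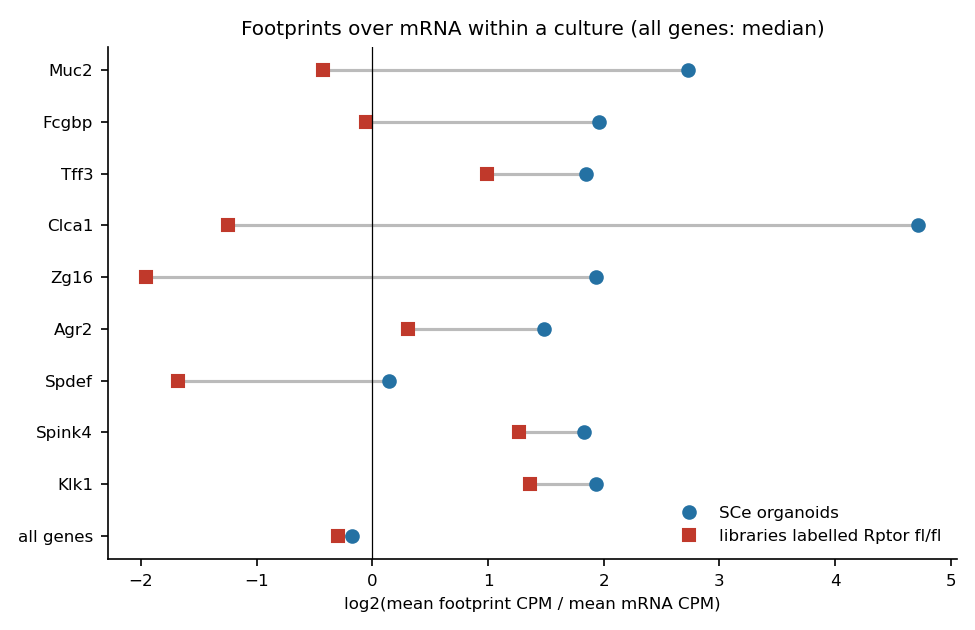
log2 ratio of mean footprint CPM to mean mRNA CPM for each gene in SCe cultures (blue circles) and those labelled Rptor fl/fl (red squares), with the median over all genes in the last line. SCe circles lie to the right of the red squares for every member, farthest for Clca1 (4.72 against -1.25).

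The RNA-seq and Ribo-seq libraries are separate samples, and marker levels differed between them. Paneth cell markers summed to 949 and 1940 CPM in the mRNA of Rptor fl/fl organoids but to 8170 to 12271 CPM in the footprints so labelled, and in SCe to 981 to 4191 and 3986 to 7079 CPM. Their translation efficiency median was 1.09, opposite in sign to that of the goblet genes. Their part in the result was not tested. The count of 3 fell to 1 without either Rptor fl/fl RNA line, without Ribo-seq library 3 so labelled or without SCe Ribo-seq library 3, and rose to 5 without SCe Ribo-seq library 2.

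In the mouse gut, 4 of these genes were higher in Rptor fl/fl, by 1.19 to 1.55-fold. Footprints of Muc2, Fcgbp, Zg16 and Clca1 were called higher in Rptor fl/fl than in WT mice, 4 of 9 members, among 7.48% of 11515 genes. These 4 were all among the 5 called in organoid mRNA, a comparison that shares no library with this one. The median log2 difference of the members was 0.25 against -0.02 over all genes.

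Clca1 was 1766, 1920 and 1823 CPM in WT mice against 2824, 2912 and 2795 in Rptor fl/fl (1.55-fold, log2 0.63 ± 0.06 SE, edgeR adjusted p = 6.98e-06). Muc2 was 4324, 4368 and 4193 CPM in WT and 5452, 6034 and 6067 in Rptor fl/fl (1.36-fold, 0.45 ± 0.06, edgeR adjusted p = 0.000236). Zg16 was 3699, 3791 and 3757 CPM in WT and 4799, 5371 and 5138 in Rptor fl/fl (1.36-fold, 0.44 ± 0.06, edgeR adjusted p = 0.000229). For these 3 genes every Rptor fl/fl mouse lay well above every WT mouse, and the share of all genes doing so was not counted. Relative to their level, the WT mice differed most from each other for Clca1.

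Fcgbp, at 14205, 13712 and 14206 CPM the most abundant member by counts, rose to 15257, 17461 and 17288 CPM (1.19-fold, 0.25 ± 0.06, edgeR adjusted p = 0.0185). Its call was lost on leaving out any one library except Rptor fl/fl mouse 1, with adjusted p from 0.0519 to 0.127 by edgeR. Agr2 was 267, 275 and 306 CPM against 347, 326 and 314 (0.20 ± 0.08, edgeR adjusted p = 0.109) and Spink4 322, 304 and 291 against 324, 340 and 374 (0.19 ± 0.08, edgeR adjusted p = 0.132). Neither overlapped between groups, again without a share over all genes. Klk1 was 81.8, 80.4 and 103 CPM against 98.7, 120 and 117 (0.30 ± 0.11, edgeR adjusted p = 0.0936) and Tff3 1155, 1056 and 1092 against 1099, 1226 and 1279 (0.13 ± 0.07, edgeR adjusted p = 0.290), both with overlap. Spdef, with 7 to 109 footprints a mouse, was 8.80, 18.6 and 15.4 CPM against 8.53, 12.4 and 13.7 (-0.37 ± 0.23, 95% interval -0.85 to 0.11, edgeR adjusted p = 0.317), the only member below 0.

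Rptor fl/fl mouse 1 was lowest of its group for 7 members and also held the most Lgr5, 45.6 CPM against 6.29 to 11.3 in the other mice, and Paneth marker levels nearer WT, 11236 against 7104 and 7244 CPM. Without it 7 members were called, with Tff3, Spink4 and Klk1 added. Across the mice, 8 of 11 Paneth markers were called lower, beside 5.97% of all genes. Their sum was 12949 to 13998 CPM in WT against 7104 to 11236 in Rptor fl/fl. Of 6 stromal markers 5 were called higher, beside 7.48% of all genes. The stromal sums were 883 to 942 CPM in WT and 1123 to 1324 in Rptor fl/fl. Enterocyte markers summed to 64938 to 66948 and 70068 to 75385 CPM. Markers of immune, acinar and smooth muscle cells, outside the Lgr5 lineage, each summed to at least 1261 CPM in every mouse. Their part in the result was not tested.

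Reads along Muc2 were also unevenly placed, a pattern chosen after its values were seen. The annotation splits the gene into pieces, of which the 5′ one (chr7:141690340-141698782) and the 3′ one (chr7:141744612-141754693) lie at its ends. In mRNA the 3′ piece held 2.22 and 2.34 times as many reads per base as the 5′ piece in WT lines and 2.09 and 2.31 times in Rptor fl/fl lines. In footprints the balance was reversed, at 0.438, 0.368 and 0.415 in organoids labelled Rptor fl/fl. SCe libraries, with 2 to 148 Muc2 footprints in all, gave 0.360, 0 and 1.22, and SCe mRNA gave 1.36, 2.23 and 2.59. In mice the ratio was 0.683, 0.757 and 0.757 in WT and 0.953, 0.885 and 0.839 in Rptor fl/fl. The mouse groups did not overlap (mean difference 0.160). A two-sided exact permutation test cannot add to this, since separate groups of 3 against 3 always give its smallest p, 0.1.

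**Figure D4:**
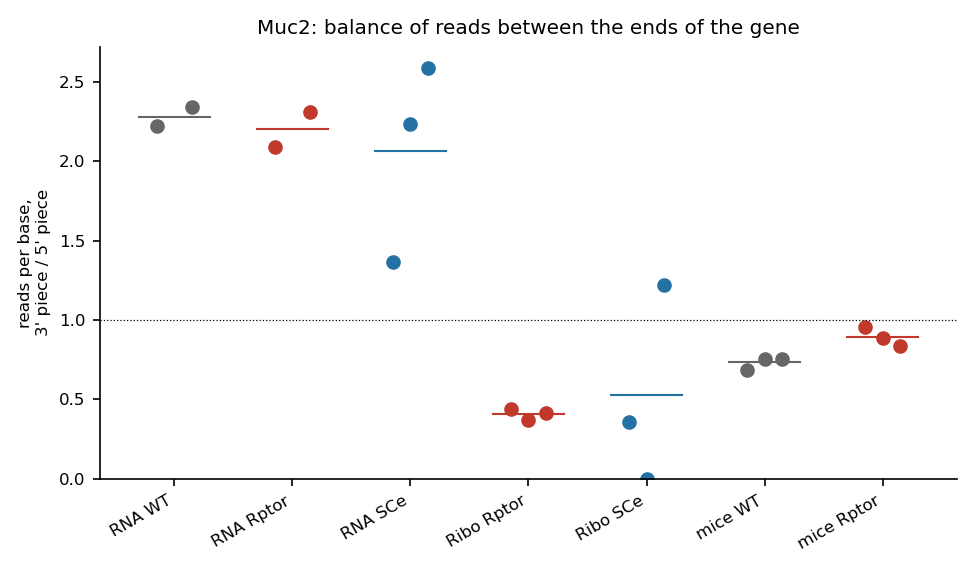
Reads per base on the 3′ piece of Muc2 divided by those on the 5′ piece (y axis) in every line, culture or mouse, with group means as bars. mRNA points lie above 1 and footprint points below it, except 1 SCe library at 1.22, and the Rptor fl/fl mice (0.839 to 0.953) lie above the WT mice (0.683 to 0.757).

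Other genes of the goblet programme were taken from lists of its regulators, mucin glycosylation, secretion and further markers. Of 15 regulators, 2 were called higher and 1 lower in Rptor fl/fl against WT organoid mRNA. These counts are near or under the shares of all genes in that comparison, 11.6% higher and 11.0% lower. Klf4, a zinc-finger factor of goblet maturation, was 32.7 and 23.9 CPM in WT and 86.2 and 83.2 in Rptor fl/fl (log2 1.58 ± 0.16, edgeR adjusted p = 0.0109), and Ern2, the mucin-cell stress sensor IRE1 beta, was 20.5 and 26.5 against 49.1 and 60.6 (1.22 ± 0.17, 0.0172). Xbp1, the secretory-stress factor that IRE1 enzymes splice, fell (-0.34 ± 0.08, edgeR adjusted p = 0.0423). Atoh1 differed by 0.04 (adjusted p = 0.920 by edgeR). The rest gave Foxa3 -0.38, Creb3l1 0.51, Hes1 -0.22, Creb3l4 0.36, Gfi1 -0.56, Elf3 0.13, Cdx2 -0.08, Foxa2 0.12, Foxa1 0.07, Nkx2-2 -0.29 and Sox9 -0.03, none past the test.

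In SCe against WT all 15 regulators were below 0 and 8 were called lower, beside 19.9% of all genes, with Ern2 (-2.28), Creb3l4 (-2.28), Nkx2-2 (-2.22), Gfi1 (-1.69), Creb3l1 (-1.38), Cdx2 (-0.52), Xbp1 (-0.42) and Elf3 (-0.41). Against SCe, 7 were higher in Rptor fl/fl mRNA, beside 21.0% of all genes, among them Ern2 (3.53), Creb3l4 (2.66), Klf4 (2.34) and Creb3l1 (1.91). In footprints Ern2 was higher (1.92 ± 0.36, edgeR adjusted p = 0.00901) and Foxa3 lower (-0.77 ± 0.17, 0.0155) under the label Rptor fl/fl, 1 of 14 in each direction beside 6.63% and 9.84% of all genes. Klf4 footprints were 6.97, 8.57 and 5.47 CPM there and 7.03, 5.12 and 7.38 in SCe, so its mRNA difference had no counterpart and its translation efficiency was called lower (-2.25 ± 0.35, edgeR adjusted p = 0.0105). In mice Elf3 was higher (0.33 ± 0.09, edgeR adjusted p = 0.0215) and Cdx2 lower (-0.33 ± 0.10, 0.0437), and the other 12 regulators tested did not pass, Klf4 among them (0.23 ± 0.10, 0.144). Over all genes in mice 7.48% were called higher and 5.97% lower.

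Of 26 mucin glycosylation genes, 4 were called higher and 2 lower in Rptor fl/fl against WT organoid mRNA, close to the 11.6% and 11.0% of all genes. Gcnt3, which builds the branched core of O-glycans, was 108 and 114 CPM in WT and 395 and 328 in Rptor fl/fl (1.70 ± 0.11, edgeR adjusted p = 0.00757), B3gnt3 was higher by 0.45 and the sulfotransferase Gal3st2 lower by -1.20 on the log2 scale. SCe cultures had 14 of the 26 lower than WT and none higher, beside 19.9% lower and 22.4% higher over all genes, with Fut8 at -1.06, B4galt1 at -0.89 and Gcnt3 at -0.63. Gcnt3 footprints followed its mRNA, at 162, 134 and 142 CPM in libraries labelled Rptor fl/fl against 39.0, 17.9 and 33.2 in SCe (2.24 ± 0.26, edgeR adjusted p = 0.00147). In mice 5 of 24 tested were higher and none lower, against 7.48% and 5.97% of all genes. The sialyltransferase St6galnac1 was 1.26, 1.36 and 8.18 CPM in WT mice against 46.2, 35.5 and 38.1 in Rptor fl/fl (2.85 ± 0.31, edgeR adjusted p = 1.47e-05), Gcnt1 rose by 1.55 and Gal3st2 by 0.41.

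The general secretory genes had calls in both directions. Of 29 tested in Rptor fl/fl against WT organoid mRNA, 5 were called higher and 8 lower, including the chaperone-related Sdf2l1 (-1.10), Manf (-0.60) and the vesicle coat gene Sec24d (-0.64), and the list median was -0.19. Over all genes 11.6% were higher and 11.0% lower. In SCe against WT 4 were higher and 10 lower, beside 22.4% and 19.9% of all genes. Against SCe 6 were higher and 6 lower in mRNA (21.0% and 21.8% of all genes), and 1 and 5 in footprints (6.63% and 9.84%). In translation efficiency 0 and 0 were called by edgeR (1.12% and 1.81% of all genes). In mice 1 of 28 tested was higher, Sec24d (0.34), and 2 lower, Aqp3 (-0.71) and Manf (-0.32). Over all genes in mice 7.48% were called higher and 5.97% lower.

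Further goblet markers also had calls in both directions. In Rptor fl/fl against WT mRNA 6 of 27 were higher, such as Bcas1 at 5.78 and 8.25 CPM in WT and 24.5 and 27.5 in Rptor fl/fl (1.89 ± 0.19, edgeR adjusted p = 0.0111) and Mptx1 (2.71 ± 0.21, 0.00894), and 5 lower, beside 11.6% and 11.0% of all genes. The lower gene with the smallest p was Sct (-2.77 ± 0.27, 0.0108 by edgeR), which encodes the enteroendocrine hormone secretin and is also on the enteroendocrine list. Itln1, also called lower here (-2.30 ± 0.41, 0.0249 by edgeR), is on the Paneth list too. So is Nupr1, called lower in mice (-0.95 ± 0.20, 0.00442 by edgeR). In SCe 19 of 26 were lower than WT and 1 higher, beside 19.9% and 22.4%. Against SCe 18 of 26 were higher in Rptor fl/fl mRNA (21.0% of all genes) and 9 of 23 in footprints (6.63%). In mice 4 of 25 were higher and 2 lower, beside 7.48% and 5.97%. The resistin-like peptide Retnlb was counted at 0, 2 and 1 in WT against 179, 264 and 680 footprints in Rptor fl/fl mice, where it reached 58.7, 80.1 and 85.5 CPM, with the smallest adjusted p of the list (1.37e-09 by edgeR). It had 0 organoid footprints and, in mRNA, was found in line 1 of WT (15.2 CPM) and of Rptor fl/fl (20.5 CPM) and at no more than 0.105 CPM in line 2 of either. Gmds, a GDP-fucose synthesis enzyme (0.50 ± 0.08, edgeR adjusted p = 0.000571), and Oit1 (0.82 ± 0.14, 0.00127) were also higher in Rptor fl/fl mice.

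Of 7 other mucins tested in Rptor fl/fl against WT mRNA, 3 were called higher and 1 lower, beside 11.6% and 11.0% of all genes. The higher ones included Muc1 and Muc5ac, at 2 and 2 and at 4 and 1 reads in WT, against 41 and 33 and 56 and 94 in Rptor fl/fl. Muc4, a membrane mucin, was 83.9 and 72.6 CPM in WT organoids, 31.9 and 40.0 in Rptor fl/fl and 223, 268 and 231 in SCe, lower in the first comparison (-1.12 ± 0.14, edgeR adjusted p = 0.0146) and higher in SCe (1.64 ± 0.12, 0.00167). In mice it was higher in Rptor fl/fl, 91.8, 85.5 and 67.2 CPM against 35.2, 36.8 and 42.9 (1.01 ± 0.14, edgeR adjusted p = 0.000138). Muc13, another membrane mucin, also rose there, from a mean of 2159 to 4160 CPM (0.94 ± 0.08, edgeR adjusted p = 4.61e-07), without a called difference in organoid mRNA (-0.01, 0.979). Muc6, a secreted mucin of stomach and duodenal glands, was 15.1, 14.5 and 74.9 CPM in WT mice against 0, 0.910 and 0.252 in Rptor fl/fl. The groups did not overlap, again without a share over all genes. WT mouse 3 held most of these footprints, 412 beside 12 and 32 in WT mice 1 and 2.

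The pattern of the members over the 19 lines, cultures and mice was alike, and describes mostly the gap between SCe and the rest. After centring log2(CPM + 1) within each assay, each member correlated with the mean of the other 8 at a Pearson r of 0.885 (Spink4) to 0.981 (Muc2), a description over points that share libraries and depth. Of 10831 genes with a mean of at least 1 CPM in each assay, the 5 other genes most like the members' mean were Uba7 (r = 0.986), Chst4 (0.978), Cfb (0.9746), Hepacam2 (0.972) and Abcc3 (0.966). Chst4 is a sulfotransferase and Cfb a complement factor. The mice were among the points used for this choice, so their differences in these genes are no separate evidence. In mice Cfb (0.35 ± 0.07, edgeR adjusted p = 0.00520) and Abcc3 (0.27 ± 0.09, 0.0481) were called higher in Rptor fl/fl. Hepacam2 (0.22 ± 0.15, 0.368), Uba7 (0.16 ± 0.09, 0.274) and Chst4 (-0.01 ± 0.16, 0.979, all by edgeR) did not pass.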

How the data were processed

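Small intestinal organoids and mouse small intestine were profiled by RNA-seq and Ribo-seq. The deposited values used here are estimated counts (NumReads) that the authors obtained with Salmon 1.1.0, with Ribo-seq adapters trimmed by cutadapt 1.18, against GENCODE vM21 protein-coding transcripts for RNA-seq and, with untranslated regions trimmed off, coding sequences for Ribo-seq, from which duplicated sequences were removed. Counts were summed per gene and rounded. Entries for upstream open reading frames were set aside. The authors' own table of translation efficiency tests holds their fold changes and p-values and was not used.

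Comparisons used edgeR 4.0.16 (TMM factors, default count filter, quasi-likelihood F tests) in R 4.3.3, fitted over all genes of the groups compared, with Benjamini-Hochberg adjusted p-values and a threshold of 0.05. For translation efficiency, a single fit of RNA-seq with Ribo-seq carried an assay-by-culture interaction. The study's methods use DESeq2 and RiboDiff. DESeq2 1.42.0 was an alternative. The other alternatives changed factors, filter, length offset, threshold, technical libraries, upstream entries and the libraries left out. CPM were scaled by TMM over all samples of an assay. Members and lists were chosen with earlier results of these data known. Named genes are all members, all regulators, the 3 genes of each other list with the smallest adjusted p in a comparison and the 5 most like the members. Rptor and the marker lists, with Lgr5, Olfm4, Itln1 and Nupr1 named from them, served as checks. The comparison of Muc2 ends was chosen after its values were seen. Lines, cultures and mice are replicates as labelled, and p-values measure the spread between them. Intervals and floors cover counting or replicate error only.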

Additional observations from a re-analysis of the deposited data

Results flagged for a closer look

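Footprints on entries for upstream open reading frames of the members were outside the main counts. For Agr2 there were 32, 58 and 43 such footprints in the organoid libraries labelled Rptor fl/fl, a mean of 6.57 ± 2.28 CPM (SD, n = 3), and 3, 1 and 2 in SCe (0.979 ± 0.591 CPM). For Spdef there were 7, 10 and 9, a mean of 1.28 ± 0.267 CPM, against 0, 1 and 0. They drew attention because every library labelled Rptor fl/fl was above every SCe library, and the difference was not tested. The share of upstream entries that separate in this way was not counted. In the main counts Agr2 (means of 238 against 43.1 CPM) and Spdef (7.37 against 2.03) separated in the same direction. So did 20.1% of all genes tested. Tff3 had 29, 26 and 58 against 11, 0 and 2, with overlap in CPM. Groups of 2 or 3 are too small for a test of single outlying samples.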

How the results depend on the processing

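At a threshold of 0.05 the calls of Muc2, Zg16 and Clca1 in Rptor fl/fl against WT held under all 11 alternatives in organoid mRNA and all 13 in mice. The members called in the 6 comparisons were otherwise 5, 7, 8, 8, 3 and 4, and 71 of 86 alternative counts stayed within 1.5 times of these. A threshold of 0.01 left 1 of 5 (Rptor fl/fl against WT mRNA), 5 of 8 (organoid footprints) and 1 of 3 (translation efficiency). The length offset left 4 in organoid footprints. For translation efficiency DESeq2 called 6 and the fit with a replicate block called 0 (Clca1 adjusted p = 0.0586). The block gave 7, 8, 8, 8 and 4 in the other comparisons, adding Tff3 (adjusted p = 0.0268) and Agr2 (0.0441) in Rptor fl/fl against WT mRNA and Tff3 (0.0380) in SCe against WT. Deviations of same-numbered samples correlated at 0.13 to 0.28 in RNA-seq and -0.04 to 0.05 in Ribo-seq. The study's methods describe a Rptor fl/fl set induced in vitro for pairing, but the labels give the 2 WT and 2 Rptor fl/fl RNA-seq lines different genotypes, so whether the numbers pair them is not settled and the block was kept as an alternative. Leaving out 1 library each gave 3 to 6 (Rptor fl/fl against WT mRNA), 5 to 9 (SCe against WT), 6 to 9 (Rptor fl/fl against SCe mRNA), 5 to 9 (organoid footprints), 1 to 5 (translation efficiency) and 3 to 7 (mice), and where 1 sample was left in a group it was assumed to vary like the others. Signs turned only for uncalled members. In Rptor fl/fl against WT mRNA, leaving out 1 library gave -0.35 to 0.38 for Spink4 (-0.09 without WT line 1, -0.35 without Rptor fl/fl line 2) and -0.23 to 0.65 for Klk1 (-0.23 without Rptor fl/fl line 2). In translation efficiency it gave -0.97 to 0.026 for Spink4 (0.026 without SCe RNA culture 1) and -1.04 to 0.47 for Klk1 (0.47 without SCe Ribo-seq library 3). The causes were not tested. RLE factors moved 1 of 63 group means by more than the spread between replicates, Fcgbp in WT lines (1091 against 1100.4 CPM). SCe Ribo-seq depth limits Clca1, Zg16 and Spdef, and groups of 2 lines limit all organoid mRNA results.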
